A study of Mus musculus with 26 samples.

Results

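Thumpd1, Trim59, Ipp and Twistnb are the mouse genes whose array signal, within each direction, most widely separated every reprogrammed line from embryonic stem cells (ESC). Ipp and Twistnb were higher in the reprogrammed lines, and Thumpd1 and Trim59 lower. They were chosen from measured values of that same contrast, so their levels in it are given here as a description, without a test. The array names 16593 genes through 25697 probes, and 5 of these probes belong to the 4 genes. There is 1 each for Thumpd1 (ILMN_2722488), Trim59 (ILMN_2993661) and Ipp (ILMN_1237651), and 2 for Twistnb (probe 1, ILMN_1231779, and probe 2, ILMN_2466121). All 5 were among the 14517 probes kept for testing, which were those detected above background on at least 2 arrays. Thumpd1 and Trim59 passed that filter through the ESC and fibroblast arrays alone.

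Illumina mouse bead arrays were hybridised with RNA of 13 lines, 2 arrays for each and 26 together. The labels give every line the same strain, OG2, a mouse carrying an Oct4-GFP transgene that reports pluripotency. The 9 reprogrammed lines are 4 iPSC[GSC] clones, 4 gPSC clones and 1 iPSC[MEF] line. iPSC[GSC] are induced pluripotent stem cells made from germline stem cells, with 2 clones from neonatal (day 10) and 2 from adult (day 40) germline stem cells. gPSC are germline-derived pluripotent stem cells, which arise in germline stem cell culture without added reprogramming genes, again with 2 clones of each origin. iPSC[MEF] was made from OG2 fibroblasts and is labelled Tet-4F. They were set against 2 parent lines of germline stem cells (GSC, 1 neonatal and 1 adult), 1 line of mouse embryonic fibroblasts (MEF) and 1 ESC line. Because ESC and MEF are 1 line each, line and cell type cannot be told apart for either. Paired arrays of a line are described as biological replicates, but no label names separate cultures, so the spread between them may be technical.

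Thumpd1 encodes a protein with a THUMP RNA-binding domain, an adaptor that helps the acetyltransferase Nat10 modify cytidine in transfer RNA. Trim59 encodes a membrane-anchored member of the TRIM family of ubiquitin ligases. Ipp encodes a kelch-repeat, actin-binding protein, and its name records that it was found as a transcript driven by an intracisternal A particle, an endogenous retroviral element of the mouse genome. Twistnb, also called Polr1f, encodes a subunit of RNA polymerase I, the enzyme that transcribes ribosomal RNA.

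The 250 bases before the annotated start of each gene are shown because the array signals of these genes separated whole groups of lines. The upstream windows are the only sequence of them used here. They are taken from RefSeq on build GRCm38.p6, all 4 genes having an entry, and read 5′ to 3′ on the strand of the gene. Capitals mark matches, on either strand, to the GC box GGGCGG, the CCAAT box CCAAT, the E-box CACGTG, the TATA box TATAAA, the octamer ATGCAAAT, the ETS site CCGGAAG or the cyclic AMP element TGACGTCA.
Thumpd1, chr7:119723620-119723869, minus strand: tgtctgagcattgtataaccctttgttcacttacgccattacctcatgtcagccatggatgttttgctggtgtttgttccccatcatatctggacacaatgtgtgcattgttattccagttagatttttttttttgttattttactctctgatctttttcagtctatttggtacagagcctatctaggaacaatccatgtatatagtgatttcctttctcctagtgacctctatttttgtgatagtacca
Trim59, chr3:69044743-69044992, minus strand: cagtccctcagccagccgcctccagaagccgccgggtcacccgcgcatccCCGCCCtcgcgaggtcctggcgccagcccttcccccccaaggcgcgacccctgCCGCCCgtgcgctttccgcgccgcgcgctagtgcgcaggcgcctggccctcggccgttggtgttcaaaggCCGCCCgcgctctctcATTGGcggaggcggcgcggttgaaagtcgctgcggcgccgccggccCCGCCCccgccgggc
Ipp, chr4:116507299-116507548, plus strand: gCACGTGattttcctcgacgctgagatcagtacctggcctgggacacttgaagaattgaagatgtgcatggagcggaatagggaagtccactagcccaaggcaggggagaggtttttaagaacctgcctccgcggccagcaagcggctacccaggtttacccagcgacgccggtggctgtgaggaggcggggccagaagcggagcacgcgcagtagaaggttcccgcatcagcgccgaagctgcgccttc
Twistnb, chr12:33429374-33429623, plus strand: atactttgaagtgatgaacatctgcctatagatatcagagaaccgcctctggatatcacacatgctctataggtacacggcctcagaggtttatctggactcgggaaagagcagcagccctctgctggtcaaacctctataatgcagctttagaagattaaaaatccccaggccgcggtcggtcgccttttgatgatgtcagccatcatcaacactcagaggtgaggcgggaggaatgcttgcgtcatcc

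The windows differed widely in base composition. That of Trim59 held 38 CpG pairs and was 77.6% G or C, and that of Thumpd1 held 1 CpG pair and was 36.8% G or C, although both genes had the same pattern of detection. Ipp held 18 CpG pairs (60.4% G or C) and Twistnb 9 (49.2%). The median over 32851 promoter windows of the same length was 6 CpG pairs and 52.4%. The Trim59 window held 4 matches to the GC box and 1 to the CCAAT box, all in reverse orientation, and the Ipp window held 1 E-box. GC boxes were present in 32.7% of all windows, CCAAT boxes in 33.8% and this E-box in 6.02%. None of the 7 motifs was found in the Thumpd1 or Twistnb windows. The other 4 motifs, which no member's window held, occurred in 12.4% (TATA box), 1.6% (octamer), 6.91% (ETS site) and 1.55% (cyclic AMP element) of windows. Such matches describe the letters only.

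The members fell into 3 patterns over the lines. Thumpd1 and Trim59 were detected in ESC and in MEF and at background in every reprogrammed and GSC line. Ipp was high in every reprogrammed line and low in ESC, GSC and MEF alike. Twistnb was lower in ESC than in all other lines, reprogrammed or not. Levels below are log2 signals after background correction and quantile normalisation, raw signals are the deposited intensities, and a probe counts as detected on an array where its deposited detection p-value is under 0.01.

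**Figure D1:**
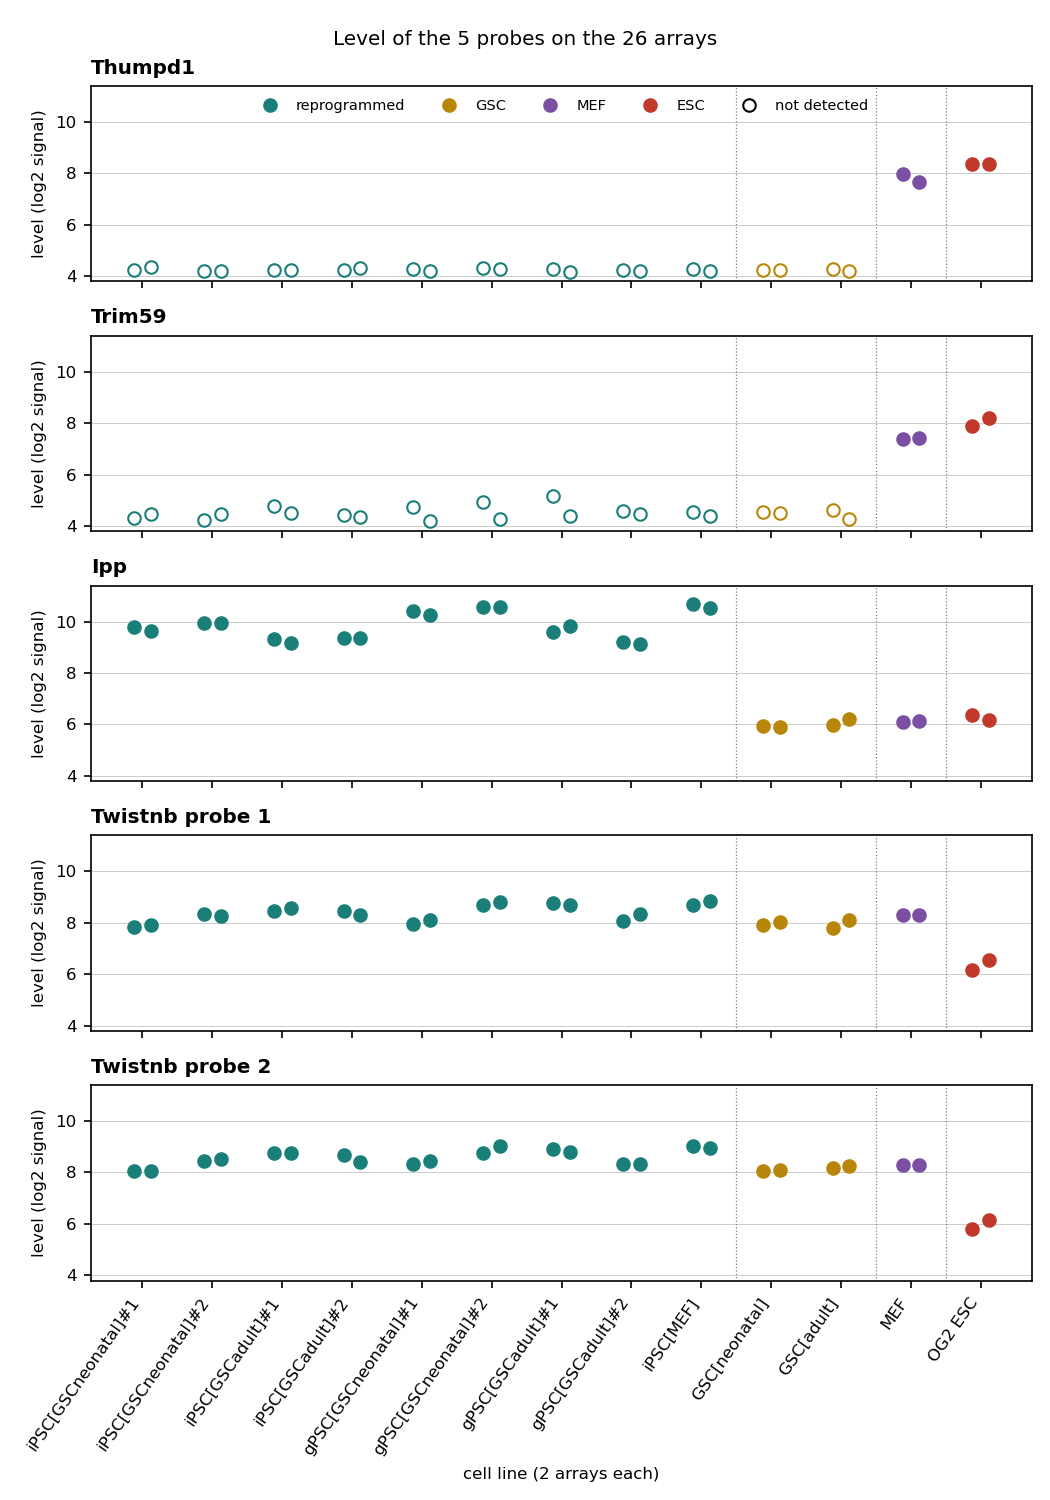
Level of each probe on the 26 arrays. The x axis gives the 13 lines with 2 arrays each, and the y axis the log2 signal. Each point is an array, open where the probe was not detected. Thumpd1 and Trim59 are detected on the MEF and ESC arrays alone, all Ipp points of reprogrammed lines lie between 9.13 and 10.69, and both Twistnb probes are lowest on the ESC arrays.

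Over the whole array, 1088 of the 14517 kept probes (7.49%) had all 18 reprogrammed arrays on one side of both ESC arrays. Of these, 470 were higher in the reprogrammed lines (3.24%) and 618 lower (4.26%). All 5 member probes were among them, as their choice required. Ranked by the gap between the nearest reprogrammed and ESC arrays, Thumpd1 was at rank 1 and Trim59 at rank 2 of the 618 lower probes, with gaps of 3.98 and 2.74 log2 units between signals. As neither probe was above background on a reprogrammed array, these gaps are no measure of fold. The next was Casp9, a caspase of the mitochondrial death pathway, with 2.60. Ipp was at rank 1 of the 470 higher probes with a gap of 2.76, and Twistnb probes 2 and 1 were at ranks 2 and 3 with 1.91 and 1.29. The next probe there, for 2610524H06Rik, had a gap of 1.25. Most separating probes did so narrowly, with a median gap of 0.10 among the higher and 0.12 among the lower.

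**Figure D2:**
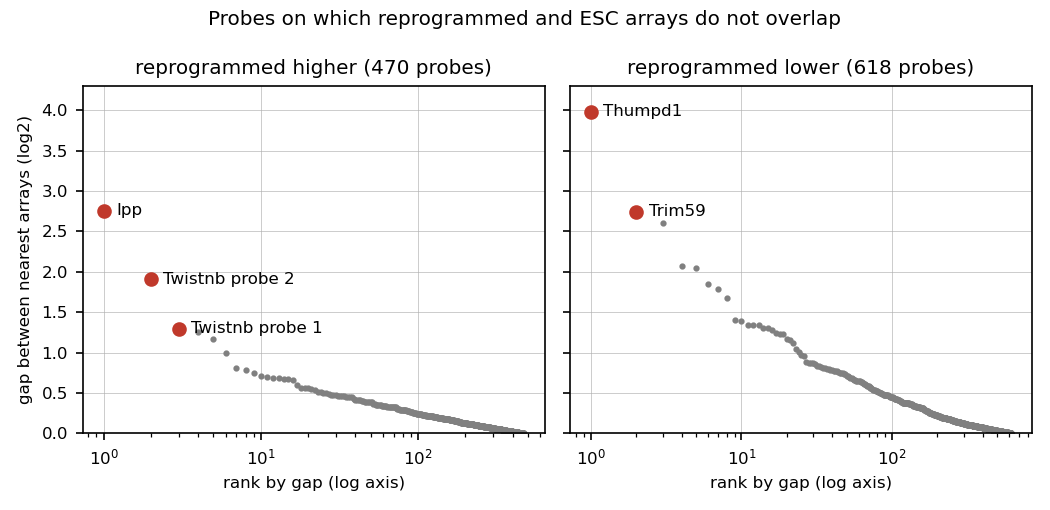
Gap in log2 units between the nearest reprogrammed array and the nearest ESC array (y axis) against its rank (x axis, logarithmic), for the 470 probes higher in reprogrammed lines (left) and the 618 lower ones (right). Grey points are single probes and red points the members, which hold ranks 1 to 3 on the left and ranks 1 and 2 on the right.

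Thumpd1 had raw signals between 77.5 and 91.9 on the 18 reprogrammed arrays, with a median of 82.6, against 372.5 and 344.1 on the ESC arrays. Its detection p-value was between 0.224 and 0.990 on the reprogrammed arrays and 0 on both ESC arrays. No reprogrammed array came near the ESC arrays. The normalised level was 4.25 ± 0.04 in the reprogrammed lines (SD, n = 9 lines), against 8.35 and 8.38 on the ESC arrays. Because the probe was at background, the difference has only a bound: Thumpd1 was at least 10.5-fold lower in reprogrammed lines than in ESC. This bound compares the mean ESC level with, for each array at background, the higher of the probe's own level and the lowest level of any probe detected there. It was at least 11.2-fold for iPSC[GSC], at least 10.02-fold for gPSC and at least 10.1-fold for iPSC[MEF].

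Thumpd1 was also at background on all 4 GSC arrays, with raw signals of 78.5 to 89.7, and at least 11.1-fold lower there than in ESC. It was detected on both MEF arrays, at 735.8 and 612.4 raw and at 7.97 and 7.67 after normalisation. The MEF level lay 0.54 log2 units below that of ESC, and the arrays of these lines did not overlap.

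Trim59 had raw signals of 78.7 to 110.6 on the reprogrammed arrays, with a median of 88.6, against 295.3 and 316.3 on the ESC arrays. The lowest detection p-value among the reprogrammed arrays was 0.0113, on 1 array of gPSC[GSCadult]#1, just outside the limit. That array had the highest reprogrammed level, 5.17, and the other array of the same clone stood at 4.37. Over the reprogrammed lines the level was 4.51 ± 0.14 (SD, n = 9 lines), against 7.90 and 8.22 on the ESC arrays. Trim59 was at least 8.57-fold lower in reprogrammed lines than in ESC, and at least 9.01-fold lower in GSC than in ESC. Its MEF levels were 7.38 and 7.43, 0.66 log2 units below ESC.

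Only 7 of the 14517 probes (0.0482%) were detected on all 4 ESC and MEF arrays and on none of the other 22. Thumpd1 and Trim59 had the widest and the second widest separation of these, at 3.30 and 2.22 log2 units. Both were chosen for their wide gap from ESC, so these places follow largely from that choice. The others were Casp9, Abhd16a, Tor1aip2, Tmem106b and Ttl, named here because they complete that count. Over the 13 line means Thumpd1 and Trim59 had a Pearson correlation of 0.994, which rests on the ESC and MEF lines, and within the 9 reprogrammed lines, all at background, it was −0.23. The lines share 1 normalisation, and this is a description.

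Fibroblast markers were read beside these genes, since both are detected in MEF. Of 8 fibroblast markers 7 were measured (Col1a1, Col1a2, Col3a1, Thy1, Dcn, Lum and Fbln2). Their mean level was between 5.07 and 9.50 on the reprogrammed arrays, 6.25 to 6.81 on the GSC arrays, 9.85 and 9.90 on the MEF arrays, and 7.39 and 7.49 on the ESC arrays. No marker was at background on every reprogrammed array, and Col1a2 was so on every GSC array. Dcn and Lum were lower in MEF (7.30 and 5.21) than in ESC (8.37 and 7.31), while the other measured markers were higher in MEF. The list mean is therefore no plain measure of fibroblast RNA. The gPSC[GSCadult]#2 clone had a list mean of 9.48, and ESC 7.44. Thumpd1 stood at background in that clone at 4.21 and Trim59 at 4.51. In iPSC[MEF] the list mean was 7.64, with Thumpd1 at 4.24 and Trim59 at 4.48. In bulk RNA, fewer cells of a type and less RNA per cell cannot be told apart. Whether fibroblast RNA has a part in the ESC levels of Thumpd1 and Trim59 was not tested.

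Ipp had raw signals of 516.5 to 1768 on the 18 reprogrammed arrays, with a median of 780.5, against 151.8 and 131.9 on the ESC arrays. It was detected on all 26 arrays. Every reprogrammed array lay above every ESC, GSC and MEF array. The level was 9.84 ± 0.56 in the reprogrammed lines (SD, n = 9 lines), against 6.37 and 6.16 on the ESC arrays. Reprogrammed lines were 3.58 log2 units, or 11.96-fold, above ESC.

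Among the iPSC[GSC] clones Ipp averaged 9.69 and 9.93 in the neonatal-derived and 9.23 and 9.35 in the adult-derived ones. Among the gPSC clones it averaged 10.32 and 10.58 in the neonatal-derived and 9.71 and 9.16 in the adult-derived ones. The highest line was iPSC[MEF], at 10.61. The ESC level of Ipp was close to that of the parent cells, which had 6.001 ± 0.13 in GSC (SD, n = 2 lines) and 6.09 and 6.14 on the MEF arrays. The 4 GSC arrays, at 5.89 to 6.21, overlapped the ESC arrays, whereas both MEF arrays lay just below them. A pattern with all 18 reprogrammed arrays above all 8 others was shown by 86 probes (0.592%), and Ipp had the widest gap of these. Its gap from ESC was already the widest among the higher probes, so this place followed from the choice of the member.

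Twistnb is the member with a pair of probes, and both placed ESC lowest. Probe 1 had raw signals of 257.4 to 475.0 on the reprogrammed arrays, with a median of 331.5, against 141.5 and 150.5 on the ESC arrays. Probe 2 had 286.6 to 589.8, with a median of 381.3, against 128.3 and 130.9 on the ESC arrays. Both probes were detected on all 26 arrays, and with both the ESC arrays were the lowest of all. The levels of probe 1 were 8.40 ± 0.33 in reprogrammed lines (SD, n = 9 lines) and 6.16 and 6.56 in ESC, a difference of 2.04 or 4.11-fold. Those of probe 2 were 8.59 ± 0.31 and 5.80 and 6.14, a difference of 2.63 or 6.17-fold.

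GSC stood at 7.96 ± 0.01 with probe 1 and 8.14 ± 0.09 with probe 2 (SD, n = 2 lines), and MEF averaged 8.30 and 8.29. Thus the parent cells, too, had 1.61 to 2.32 log2 units more Twistnb signal than ESC. All 24 other arrays lay above both ESC arrays for 172 probes (1.18%), and Twistnb probes 2 and 1 had the widest and the second widest gaps of these. Twistnb was chosen for its wide gap from ESC, so these places follow largely from that choice. Over the 13 line means the probes had a Pearson correlation of 0.987 and a Spearman correlation of 0.956. Within the 9 reprogrammed lines, without ESC, the Pearson correlation was 0.972. The points share arrays and normalisation, and this is a description. The probes differed in the size of the ESC difference, by −0.59 log2 units for probe 1 minus probe 2. The level of probe 1 minus that of probe 2 was 0.39 in ESC and 0.01 in MEF, and between −0.37 and −0.11 in the other 11 lines. For Thumpd1, Trim59 and Ipp the array has 1 probe each, so that agreement between probes could not be examined. Fold values for these genes therefore describe the signal of a single probe. The probe sequences were not available, and whether a sequence variant under a probe affects these signals was not tested.

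**Figure D3:**
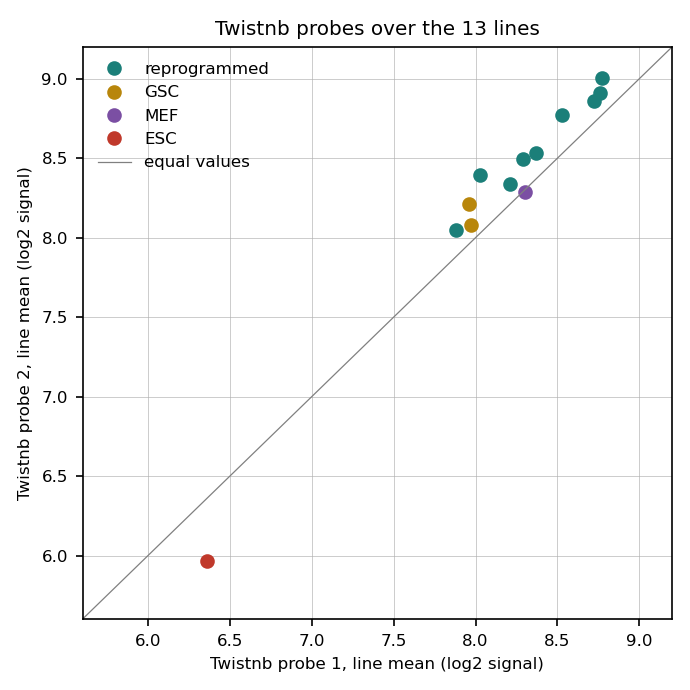
Line means of Twistnb probe 2 (y axis) against probe 1 (x axis), both as log2 signal, for the 13 lines. Each point is a line (mean of 2 arrays), and the grey line marks equal values. The ESC line lies alone at 6.36 and 5.97, and the other 12 lines lie between 7.88 and 9.002 on both axes.

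Technical groups of arrays were visible in the background signal. The labels do not name them. The background median was 87.3 to 89.4 on 8 arrays (batch A, array 1 of the gPSC, iPSC[MEF], GSC and ESC lines), 79.4 to 83.8 on 16 arrays (batch B) and 105.3 and 113.4 on the 2 MEF arrays (batch C). Batch C and MEF cannot be told apart. Batches A and B each hold 1 ESC array. Within batch A the reprogrammed arrays differed from ESC by 3.72 for Ipp, 2.28 for Twistnb probe 1 and 2.88 for probe 2, and within batch B by 3.59, 1.82 and 2.42 in the same order. Thumpd1 was undetected on the reprogrammed arrays of both batches, at means of 4.28 in batch A and 4.24 in batch B, against 8.35 and 8.38 on the ESC arrays. Trim59 was likewise undetected, at 4.80 and 4.40, against 7.90 and 8.22 in ESC.

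The line means of gPSC[GSCneonatal]#2 and iPSC[MEF] had a correlation of 0.997 over 9840 genes, above the next highest pair of lines at 0.989, and their labels differ in origin. Without both lines the reprogrammed difference from ESC was 3.37 for Ipp, 1.93 for Twistnb probe 1 and 2.52 for probe 2, and Thumpd1 and Trim59 were at least 10.6-fold and at least 8.64-fold lower. Marker levels were set beside the labels. All 8 pluripotency markers were detected on every reprogrammed and ESC array, with list means of 10.06 to 10.80 and 10.63 to 10.67. Of these, Pou5f1 was higher and Zfp42 lower in reprogrammed lines than in ESC without overlap, where 7.49% of all probes did not overlap. Pou5f1 averaged 11.83 in iPSC[GSC], 11.78 in gPSC and 11.73 in iPSC[MEF], against 11.42 in ESC. Zfp42 averaged 8.87, 8.42 and 7.82 in the same order, against 10.02 in ESC. Nanog and Sox2 were at background on all GSC and MEF arrays. Germline stem cell markers, 7 of 8 measured, averaged 5.43 to 6.19 on reprogrammed arrays and 7.49 to 7.66 on GSC arrays. Etv5 of that list ran the other way, with 7.81 in iPSC[GSC] against 5.79 in GSC. Testis somatic markers, 5 of 8 measured, averaged 6.43 to 7.05 on reprogrammed, 5.78 to 5.95 on GSC, 6.88 to 6.92 on MEF and 7.33 to 7.35 on ESC arrays. That list was split. Rhox5 stood at 11.72 in iPSC[GSC] and 12.05 in ESC against 4.82 in GSC, and Acta2 at 8.51 in iPSC[GSC] against 6.12 in GSC. Wt1, a Sertoli cell transcription factor, stood at 4.92 in iPSC[GSC] against 8.99 in GSC. Sox9 was at background on every iPSC[GSC] array, at a mean of 4.29, and was detected on only 1 GSC array, at a mean of 4.73. The list mean therefore does not measure testis somatic cells. The part of other cells in the GSC levels was not tested.

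The reprogrammed lines were next set against their own parent cells. The reprogrammed arrays on one side of these comparisons are those that served to choose the members, so the comparisons are not independent of that choice. Counts and differences of the members between reprogrammed and parent cells are given as a description, and nothing is read from them. Comparisons were fitted with limma on all 26 arrays, with the line as a random block, and p-values were adjusted over the 14517 probes by the Benjamini-Hochberg method. The first of these asks which genes changed when GSC became pluripotent through added factors. In iPSC[GSC] against GSC 1 of the 5 member probes was called at an adjusted p under 0.05, where 47.2% of all probes were called (22% higher and 25.3% lower). That probe was Ipp, which stood at 9.55 ± 0.32 in iPSC[GSC] (SD, n = 4 clones), against 6.001 in GSC, a difference of 3.55 ± 0.20 log2 units (SE) or 11.7-fold. All 8 iPSC[GSC] arrays were above all 4 GSC arrays, and on the arrays of batch B alone, which hold every iPSC[GSC] array, the difference was 3.50. Thumpd1 and Trim59 were at background in both groups, and no fold is given.

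Twistnb had 8.27 ± 0.28 in iPSC[GSC] (SD, n = 4 clones) and 7.96 in GSC with probe 1 (limma adjusted p = 0.338). With probe 2 it had 8.46 ± 0.30 in iPSC[GSC] and 8.14 in GSC (limma adjusted p = 0.245). The 95% interval of the difference was −0.21 to 0.82 for probe 1 and −0.13 to 0.76 for probe 2.

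In gPSC against GSC, which shares the GSC arrays with the comparison above, 1 of the 5 probes was called, where 45.4% of all probes were. That probe was again Ipp, at 9.94 ± 0.64 in gPSC (SD, n = 4 clones), against 6.001 in GSC, a difference of 3.94 ± 0.20 (SE) or 15.4-fold. Within batch A this difference was 3.99 and within batch B 3.90. Twistnb did not pass the threshold: probe 1 differed by 0.47 ± 0.25 (SE, limma adjusted p = 0.133) and probe 2 by 0.48 ± 0.22 (SE, limma adjusted p = 0.0752). These calls depend on the clones. Both probes passed without gPSC[GSCneonatal]#1, with differences of 0.65 and 0.61 (limma adjusted p = 0.0291 and 0.0248). They also passed once gPSC[GSCadult]#2 was left out, with 0.59 and 0.61 (limma adjusted p = 0.0462 and 0.0237).

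In iPSC[MEF] against MEF, with 1 line on each side, 3 of the 5 probes were called (1 higher, 2 lower), where 31.4% of all probes were (16.1% higher and 15.3% lower). Thumpd1 was at background in iPSC[MEF], at least 6.97-fold lower than in MEF. Its levels were 4.29 and 4.20 on the iPSC[MEF] arrays, against 7.97 and 7.67 on the MEF arrays. Trim59 was at 4.55 and 4.40 in iPSC[MEF], against 7.38 and 7.43 in MEF, and at least 5.22-fold lower. Ipp had 10.69 and 10.53 on the iPSC[MEF] arrays, against 6.09 and 6.14 on the MEF arrays, a difference of 4.49 ± 0.32 (SE) or 22.5-fold. Twistnb probe 1 differed by 0.47 and probe 2 by 0.71 (limma adjusted p = 0.434 and 0.135), and neither was called. Centring each array on its median, which moves the median of all probes in this comparison to −0.37, turned these Twistnb differences to −0.40 and −0.14.

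In GSC against MEF, the parent cells themselves, 2 of the 5 probes were called, where 45.3% of all probes were. Neither side of this comparison served to choose the members. The called probes, Thumpd1 and Trim59, passed the filter on dim probes only through the ESC and MEF arrays, where they are high. The count is therefore given as a description, and nothing is read from it. Thumpd1 was at least 7.63-fold lower in GSC than in MEF (limma adjusted p = 7.32e-12). Trim59 was at least 5.72-fold lower (limma adjusted p = 7.44e-05). Ipp differed by −0.11 ± 0.28 (SE, limma adjusted p = 0.799), with a 95% interval of −0.69 to 0.46. Twistnb differed by −0.34 with probe 1 and −0.14 with probe 2 (limma adjusted p = 0.483 and 0.764). With median centring both Twistnb probes were called, at −1.14 and −0.94 (limma adjusted p = 0.00412 and 0.0116), where the median of all probes was −0.30. Batch C holds both MEF arrays and no other, so that no comparison with MEF can be made within a batch.

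**Figure D4:**
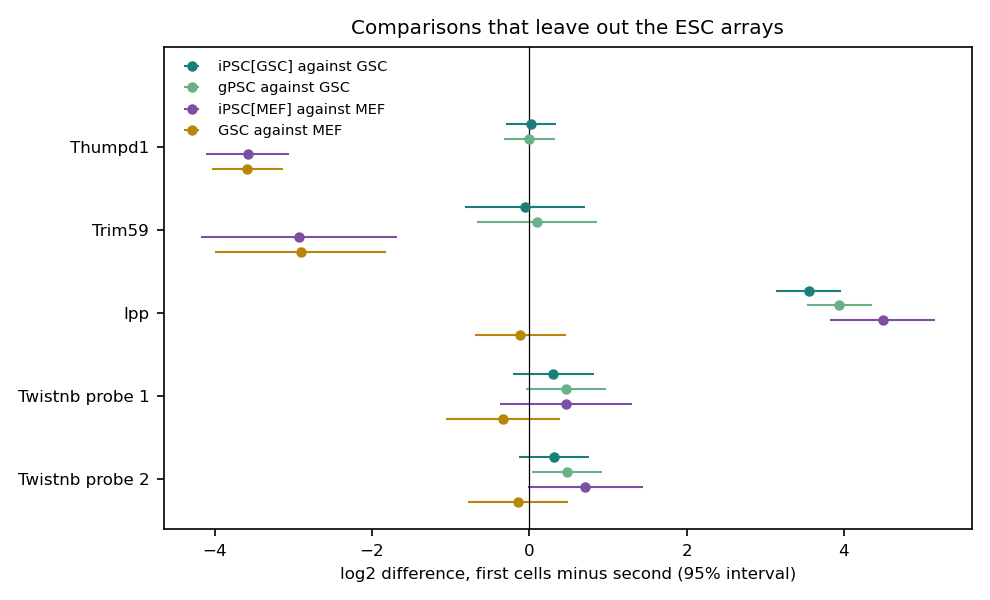
Log2 differences of the 5 probes in 4 comparisons that do not take ESC as a side. Points are limma estimates on the x axis, bars their 95% intervals, and colours the comparisons, the first-named cells minus the second-named. Ipp lies between 3.55 and 4.49 in the 3 comparisons with reprogrammed cells, Thumpd1 and Trim59 lie below 0 in both comparisons with MEF, and Thumpd1 and Trim59 values near 0 join groups at background. Estimates for those probes against MEF are differences from a background signal, not folds.

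Among the 8 germline-derived clones the method and the age of origin were tested on clone means, which have 4 residual degrees of freedom. All iPSC[GSC] arrays are in batch B, while each gPSC clone has an array in batch A and another in batch B. Method and batch therefore cannot be fully told apart in these means. For iPSC[GSC] against gPSC 0 of the 5 probes were called, where 0% of all probes were, with 724 of 14517 at an unadjusted p under 0.05. Ipp averaged 9.55 in iPSC[GSC] clones, against 9.94 in gPSC clones, and the difference was −0.39 ± 0.16 (SE, limma adjusted p = 0.757). The Twistnb probes differed by −0.16 each, with 95% intervals of −0.69 to 0.37 and −0.64 to 0.32.

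For adult against neonatal origin 0 of the 5 probes were called, where 0% of all probes were, with 706 at an unadjusted p under 0.05. Ipp averaged 9.36 ± 0.24 in clones of adult origin, against 10.13 ± 0.40 in those of neonatal origin (SD, n = 4 clones each), a difference of −0.77 ± 0.16 (SE). Its unadjusted limma p was 0.00271 and its adjusted p 0.75, so it failed the correction. Clone means were 9.16 to 9.71 in the adult-derived clones and 9.69 to 10.58 in the neonatal-derived ones, which overlap slightly. All clones of an origin come from 1 GSC line. For the difference between methods by origin 0 of the 5 probes were called, where 0% of all probes were, with 230 at an unadjusted p under 0.05. The value for Ipp was 0.50 ± 0.32 (SE, limma adjusted p = 0.999).

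The 10 nearest measured genes around each member, 40 in all, were read for the same patterns. None had the pattern of its own member (0 of 40, where 0.0482%, 0.592% and 1.18% of all probes had the 3 patterns). Reprogrammed and ESC arrays did not overlap for 2 of the 40, where this held for 7.49% of all probes. Nothing is read from either count. Both of these lie near Trim59 on chromosome 3. Ift80, a subunit of intraflagellar transport and the next gene to Trim59, had 5.06 in reprogrammed lines and 4.66 in ESC, opposite in direction to Trim59. All 24 other arrays lay above ESC for Ift80, which is the pattern of Twistnb. The gap between its reprogrammed and ESC arrays was only 0.11, however. Its ESC mean lay below the lowest level of any probe detected on the ESC arrays (4.99 and 4.88). Nmd3, an export adaptor of the large ribosomal subunit, had 8.15 in reprogrammed lines and 8.65 in ESC. The other neighbour of Trim59, Ppm1l, differed by −0.26. Gprc5b and Eri2, on either side of Thumpd1 on chromosome 7, differed by 0.05 and 0.01. Mast2 and Tmem69, beside Ipp on chromosome 4, differed by −0.02 and −0.18, and Sypl and Twist1, beside Twistnb on chromosome 12, by −0.04 and −0.24. Over all 40 neighbours the difference lay between −0.50 and 0.40.

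**Figure D5:**
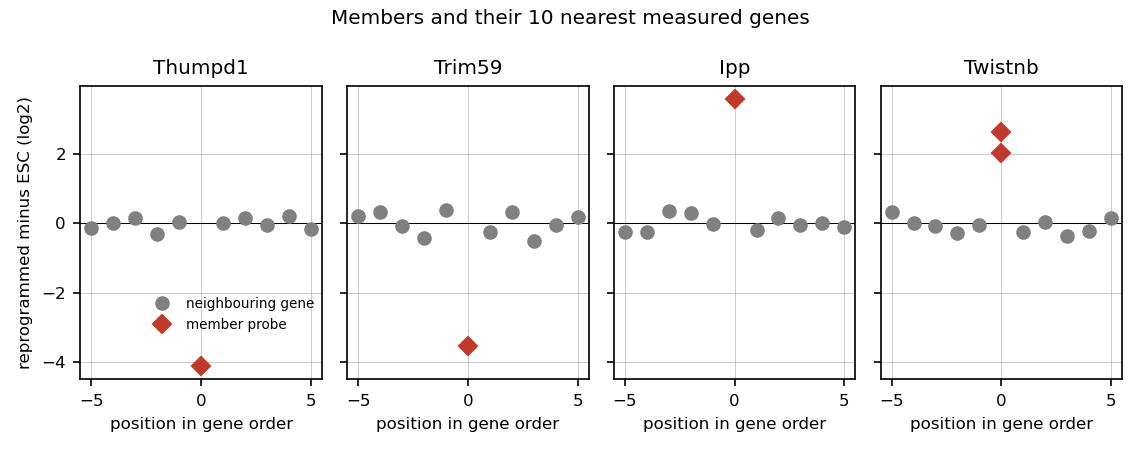
Reprogrammed minus ESC difference in log2 units (y axis) of each member probe (red diamonds, position 0) and of the 5 nearest measured genes on each side (grey circles), by position in gene order (x axis). The 40 neighbours lie between −0.50 and 0.40, and the Ipp and Twistnb probes lie at 3.58, 2.04 and 2.63. Thumpd1 and Trim59 are drawn as differences from a background signal, which are no folds.

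The genes most similar to each member over the 13 line means, by Pearson correlation among 9836 other genes, were the same for Thumpd1 and Trim59. They were Myl1 (0.977 with Thumpd1 and 0.965 with Trim59), Abhd16a (0.967 and 0.961) and Cyb5r1 (0.942 and 0.923). As both members are at background elsewhere, these correlations rest on the ESC and MEF lines. Myl1 was undetected on all reprogrammed and GSC arrays and reached only 5.47 in MEF and 5.35 in ESC. Abhd16a, a phospholipid hydrolase, was undetected on all reprogrammed and GSC arrays at a mean of 4.62 and 4.72, against 7.51 in MEF and 6.78 in ESC. Cyb5r1 was detected on all reprogrammed arrays and stood at 7.26 in reprogrammed lines and 8.95 in ESC. For Ipp the most similar genes were Nudt9 (0.918), Adck5 (0.899) and Abcb9 (0.895). Nudt9, an ADP-ribose hydrolase, had 8.24 in reprogrammed lines and 7.74 in ESC, a much smaller difference than that of Ipp. For Twistnb probe 2 they were Mrps17 (0.809), Cep135 (0.783) and Mak16 (0.776). Mrps17 encodes a protein of the mitochondrial ribosome and Mak16 a factor of ribosome assembly.

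The families and partners of the members were read from lists of related genes. Each listed gene was read from its kept probe of highest mean level. The shares of all probes set beside the lists run over every kept probe, with dimmer and repeated ones, so they are only a rough measure. Of 20 listed genes of RNA polymerase I and its initiation factors 14 were measured, and in iPSC[GSC] against GSC 2 rose, 5 fell and 7 did not pass, where 47.2% of all probes were called (22% higher and 25.3% lower). Polr1a, the largest subunit of the enzyme, rose by 1.47 ± 0.19 (SE) to 10.19 in iPSC[GSC], against 8.72 in GSC (limma adjusted p = 1.15e-06), and had 10.19 in ESC. Polr1c fell by 1.48 (10.04 in iPSC[GSC], 11.52 in GSC), Polr2f fell by 1.17 and Polr1e rose by 0.82. The list's median difference was −0.09, against −0.02 over all probes. In iPSC[MEF] against MEF 6 of the 14 rose and 0 fell, where 16.1% of all probes rose and 15.3% fell, and the median was 0.79 against 0.07 over all probes. In the same comparison 5 rose and 1 fell of 17 measured THUMP and RNA modification genes (median 0.58), 5 rose and 5 fell of 23 TRIM genes (median −0.18), and 3 rose and 3 fell of 24 kelch-like genes (median 0.26). MEF is 1 line, alone in batch C, and the list counts and medians against MEF were not recomputed with another scaling. Nothing is read from them. Between reprogrammed lines and ESC 3 of the 14 polymerase genes did not overlap, all higher in reprogrammed lines, as 3.24% of all probes were. They were the chosen member Twistnb, Znrd1 (a polymerase subunit) and Ubtf (the upstream binding factor of ribosomal genes). Ubtf averaged 8.07 in iPSC[GSC], 8.41 in gPSC and 8.62 in iPSC[MEF], against 7.70 in ESC.

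Of 21 listed THUMP domain proteins and enzymes of RNA acetylation or methylation 17 were measured. In iPSC[GSC] against GSC 2 rose, 2 fell and 13 did not pass, where 47.2% of all probes were called. Trmt61a, a transfer RNA methyltransferase subunit, rose by 0.69 and Dus2, a dihydrouridine synthase, by 0.70, while Wdr4 fell by 1.10 and the pseudouridine synthase Pus3 fell by 1.04. Nat10, the acetyltransferase that Thumpd1 assists, had 5.48 in iPSC[GSC], 5.65 in gPSC and 6.16 in iPSC[MEF], against 5.57 in ESC. Thumpd1 and Nsun2, an RNA cytosine methyltransferase, were the 2 of the 17 whose reprogrammed and ESC arrays did not overlap, both lower in reprogrammed lines, as 4.26% of all probes were. Nsun2 averaged 5.56 in iPSC[GSC], 5.99 in gPSC and 6.25 in iPSC[MEF], against 6.68 in ESC.

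Of 30 listed TRIM ubiquitin ligases 23 were measured, and in iPSC[GSC] against GSC 5 rose, 8 fell and 10 did not pass, where 47.2% of all probes were called. Trim8 rose by 2.63 and Trim25, an activator of RIG-I signalling, by 1.44, with Trim25 detected on 3 of the 4 GSC arrays, while Trim21, a cytosolic antibody receptor, fell by 1.61. Trim2, detected on 6 of the 8 iPSC[GSC] arrays and on 0 of the 4 GSC arrays, was at least 2.68-fold higher in iPSC[GSC] (limma adjusted p = 0.00735). Trim59 and Trim11 were lower in reprogrammed lines than in ESC without overlap and Trim56 was higher, a total of 3 of 23, where 7.49% of all probes did not overlap. Trim11 was detected on 0 of the 18 reprogrammed arrays, against both ESC arrays at a mean of 4.96, and on 1 of the 2 MEF arrays. Of 33 listed kelch-like proteins 24 were measured, and in iPSC[GSC] against GSC 5 rose, 9 fell and 10 did not pass, where again 47.2% of all probes were called. Ipp had the largest difference in that list. Klhl22 rose by 1.87 and Klhl7 by 1.65, while Klhl15 fell by 1.71. Against ESC, Ipp, Klhl9 and Keap1, the sensor of oxidative stress, were higher in reprogrammed lines without overlap, and Klhl11 and Klhl15 were lower, among the 24 measured, where 7.49% of all probes did not overlap. Keap1 averaged 7.58 in iPSC[GSC], 7.71 in gPSC and 8.10 in iPSC[MEF], against 7.36 in ESC.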

How the data were processed

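RNA of 26 arrays was amplified to labelled cRNA, per the labels' protocols. The deposited table holds each probe’s intensity and its detection p-value on each array, per the file headers, exported from BeadStudio 3.2 per the submitters' processing notes, which also name RMA and lumi without versions. The authors deposited a matrix of normalised values as well, read here as log2 from its range, and it served as an alternative. One adult GSC description carries the number of the other array of that line, and its title was used.

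The neqc function of limma 3.58.1 (offset 16, with statmod 1.5.0 and R 4.3.3) used the detection p-values to correct the background, then applied quantile normalisation and log2. Probes with a detection p-value under 0.01 on at least 2 arrays were kept. Parent-cell comparisons were fitted over 9 cell types on all arrays, lines entering as random blocks (consensus correlation 0.788, 17 residual degrees of freedom), and clone comparisons used 8 clone means. Calls are Benjamini-Hochberg adjusted p under 0.05 over 14517 probes. The fits were tested on simulated data.

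Probes were named by Entrez identifier from a gene table on GRCm38.p6, of which 23978 had a single symbol. That table was also used for the order of neighbouring genes. The named genes are all probes of the members, the 3 genes most correlated with each, the nearest measured gene on either side and, from each family list, up to 4 called genes with the largest difference in iPSC[GSC] against GSC. Ift80 and Nmd3, the list genes that did not overlap with ESC, Etv5, Wt1 and Nat10 were named after their values were seen. The same holds for Rhox5, Acta2 and Sox9, and for the levels of Dcn and Lum. The members and lists were chosen with earlier results of these data known. On arrays, signal over background and the number of lines limit precision. Alternatives were background correction, normalisation, the deposited matrix, filters, 1 probe per gene, batches, the replicate block, and leaving out arrays or lines.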

Additional observations from a re-analysis of the deposited data

Results flagged for a closer look

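Of 15 tests for a value far from the rest of its group, made on the clone means of each probe, 1 passed Dixon's limit, and chance alone gives about 1 in 20. The Trim59 level of iPSC[GSCadult]#1 was 4.64, above the other 3 iPSC[GSC] clones at 4.36 to 4.38. The probe was not detected on either array of that clone.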

How the results depend on the processing

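All 5 probes separated reprogrammed from ESC arrays in each alternative tried, except that 4 were counted with 1 probe per gene, where Twistnb probe 1 is left out by construction. The Ipp difference lay between 2.66 (no background correction) and 4.002. Thumpd1 and Trim59, at background in the reprogrammed lines, have no measured size to compare. The difference between the Twistnb probes in that contrast, −0.59, was −0.35 without background correction and −0.74 in the deposited matrix, and −0.60 to −0.57 when arrays or lines were left out. As a description, Ipp stayed called in its 3 comparisons with parent cells in all alternatives (highest limma adjusted p 0.00693, on the arrays of batch A alone). Trim59 in iPSC[MEF] against MEF missed the threshold in the deposited matrix (limma adjusted p = 0.068).

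Member counts moved in 3 comparisons. In gPSC against GSC 2 probes were called without background correction and 2 with no filter on dim probes, and 1 to 3 when arrays or lines were left out. In GSC against MEF 4 were called with median centring. In iPSC[MEF] against MEF the count of 3 was 2 in the deposited matrix and 4 with no filter. Twistnb probe 1 turned direction, without being called, when gPSC[GSCneonatal]#2 was left out, also with iPSC[MEF] left out: to 0.022 in iPSC[GSC] against gPSC and to −0.076 in the difference between methods by origin. When arrays or lines were left out, it ranged from −0.35 to 0.022 in the first and from −0.076 to 0.66 in the second. With median centring, iPSC[MEF] against MEF gave −0.40 for Twistnb probe 1 and −0.14 for probe 2. The causes were not tested.

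Over all probes, the 6589 calls in gPSC against GSC became 2971 on batch A alone, where fewer arrays enter. The 4557 calls in iPSC[MEF] against MEF became 2607 on line means and 2417 and 2456 with 1 array per line. Calls among clones, 0 in the main fits, became 16, 7 and 7 with batch as a term, for origin, method and method by origin, on single arrays. With the replicate block they were 13, 9 and 6, and with arrays in place of clone means 13, 9 and 7. Those 3 fits use single arrays with the clone as a random block, and they hold no more clones than the main fits. Deviations of same-numbered arrays correlated by −0.17 to 0.41 over 78 line pairs (median 0.01), so replicate numbers did not pair the arrays over all lines. In the gPSC, iPSC[MEF], GSC and ESC lines array 1 is in batch A and array 2 in batch B. Replicate number and batch coincide in those lines. The block left the member counts at 1, 1, 3 and 2 in the comparisons with parent cells and 0 in the 3 among clones.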
